A study of Mus musculus with 3 samples.

Results

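The receptors described here are 9 cell surface receptors for extracellular nucleotides, adenosine and catecholamines (P2ry1, P2ry2, P2rx7, Adora1, Adora2a, Adora2b, Adra1a, Adra1b and Adrb1), measured in the retinal pigment epithelium (RPE), a pigmented monolayer between the photoreceptors and the choroid. They were listed by gene name, with earlier results of these data known, and their probes were found through the accession of every mouse probe on the array. Of the 9 genes, 8 had at least 1 probe, with 13 probes in all, among 15597 named genes. No probe was matched to Adora1, the adenosine A1 receptor, and its level was not analysed here. The data came from 3 samples of RPE sheets of adult C57BL/6 mice (the J substrain, per the study's methods) aged 2.5–3 months, which form 1 group with no control and no treatment. Each sample was hybridised in 1 colour to an oligonucleotide array (MEEBO), and the series describes the samples as independent biological replicates. The question the arrays address for these genes is which of the receptors gave a signal in adult murine RPE. With no second group, each probe was compared with the negative control spots of its own array.

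ATP and other nucleotides leave cells and act on P2X receptors, which are ion channels opened by ATP, and on P2Y receptors, which couple to G proteins. Ectoenzymes then break nucleotides down to adenosine, which acts on its own G protein-coupled receptors. Adrenergic receptors are the G protein-coupled receptors for adrenaline and noradrenaline. P2Y receptors and alpha-1 adrenergic receptors mostly act through Gq, phospholipase C and calcium release. Adenosine receptors of the Adora2a and Adora2b genes and beta adrenergic receptors raise cyclic AMP through Gs, whereas the Adora1 adenosine receptor and alpha-2 adrenergic receptors lower it through Gi. In RPE, extracellular ATP and adrenergic agonists are known for changing intracellular calcium, chloride conductance and the transport of fluid from the subretinal space toward the choroid.

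The arrays differed in brightness. The mean background-subtracted intensity of all mouse probes was 831, 476 and 316 scanner units on replicates 1, 2 and 3. The 94 spots of the class named mCN, taken as negative controls, had a median of 13, 12 and 14 units and a 95th percentile of 133, 72.4 and 53.9 units. Replicate 3 was scanned in a separate session, which could not be tested as a batch because it held 1 array. Of the RPE markers, 12 of 14 were detected, among them the retinoid isomerase Rpe65 (7.88 ± 0.20) and the opsin Rgr (8.15 ± 0.06). Each level is the mean ± SD over 3 arrays of the log2 intensity minus the detection threshold. The threshold is the 95th percentile of that array's negative controls. A set of 7 corneal and conjunctival epithelium genes (Krt12, Krt5, Krt14, Krt15, Krt4, Krt13 and Trp63) separated the arrays. On the probe with the largest limma statistic for each gene, all 7 lay below the threshold on replicate 1 and above it on replicates 2 and 3, and 0 of 7 passed the limma test described below (5 at an unadjusted p under 0.05). The summed normalized intensity of their 9 probes was 657, 189112 and 367144, so values are given below for each array, and each receptor call is also given without single arrays.

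Among the 8 receptors with a probe, Adora2b and P2ry2 were detected and the other 6 were not. Adora2b stood far above the negative controls on all 3 arrays, and P2ry2 stood above them by an amount that differed widely between arrays. A probe was called when its log2 intensity, after background correction and quantile normalization, exceeded the 95th percentile of the negative controls at an adjusted p under 0.05 (limma, one-sided, Benjamini-Hochberg over all mouse probes). For a gene to count as detected, at least 1 of its probes had to be called. By this rule 2 of 13 receptor probes were called, against 25.5% of all 35078 mouse probes, and 2 of 8 genes were detected, against 39.8% of all named genes. The same 2 probes had an unadjusted p under 0.05, a level reached by 27.3% of all mouse probes. Of the 5 receptor genes with 2 probes 1 was detected, against 49.1% of all genes with 2 probes, and of the 3 with 1 probe 1 was detected, against 33.7%. By probe class, 2 of 8 mMC, 0 of 3 mMA and 0 of 2 mMR probes were called in limma (0 of these 5 mMA and mMR probes at an unadjusted p under 0.05), against 27.1%, 15.3% and 27.9% of all mouse probes of these classes. The median receptor probe lay at -0.97 on the log2 scale relative to the threshold and the median mouse probe at -0.74.

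**Figure D1:**
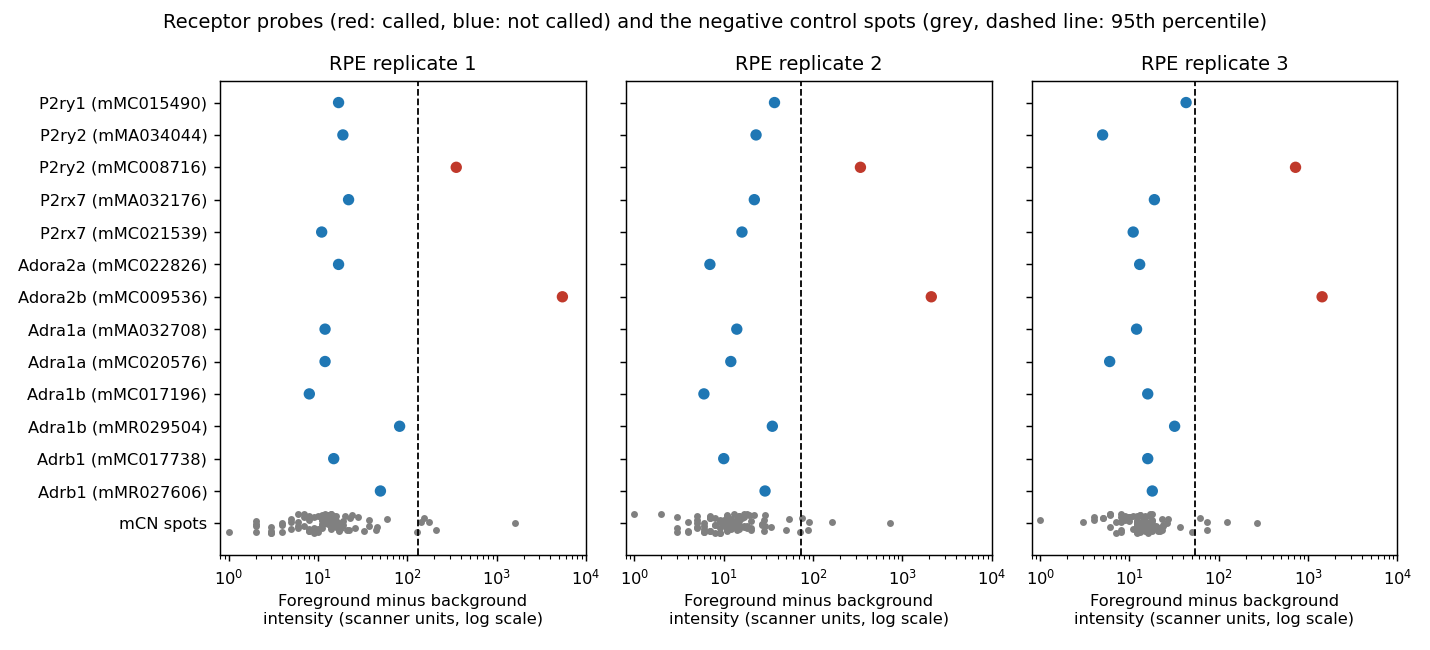
Background-subtracted intensity of each receptor probe in scanner units (log scale) on the 3 arrays, with probes called above the negative controls in red and probes not called in blue. The 94 negative control spots of each array are in grey (values under 1 drawn at 1), and the dashed line is their 95th percentile (133, 72.4 and 53.9 units), which among the receptor probes only the Adora2b probe and 1 P2ry2 probe exceeded.

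Adora2b encodes the A2B adenosine receptor, the low-affinity adenosine receptor, which couples to Gs and raises cyclic AMP. Its single probe (mMC009536) read 5446, 2106 and 1432 scanner units on replicates 1, 2 and 3. All 3 values exceeded every one of the 94 negative control spots of their array, whose highest spots read 1623, 729 and 265 units. The raw value was highest on replicate 1, which was also the brightest array. After normalization the probe lay 4.42, 4.13 and 4.21 log2 units above the threshold, with a mean of 4.25 ± 0.15 (SD, n = 3, limma adjusted p = 1.29e-06). The deposited normalized intensity of the same spots was 11813, 7663 and 7232, a ratio of 1.63 between the highest and the lowest array. Among the 8931 called mouse probes, 71.6% had a larger SD over the arrays than the Adora2b probe.

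Adora2a encodes a high-affinity adenosine receptor that, like the Adora2b product, couples to Gs. Its single probe (mMC022826) read 17, 7 and 13 scanner units. These values exceeded 68, 18 and 39 of the 94 negative control spots, so the probe lay within the range of the controls on every array. The scanner software marked the spot as not found on replicates 1 and 2. The mean level was -1.03 ± 0.06 log2 units relative to the threshold (n = 3), and the probe was not called. The related A3 receptor gene Adora3, which is Gi-coupled, was likewise not called on either of its 2 probes (-1.05 ± 0.10 on the probe with the larger limma statistic). Of the adenosine receptor genes with a probe, 1 of 3 was therefore detected.

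P2ry2 encodes the P2Y2 receptor, which is activated by ATP and UTP and couples to Gq. One of its 2 probes (mMC008716) read 353, 339 and 722 scanner units and exceeded 93, 93 and 94 of the 94 negative control spots. Relative to the threshold it lay at 0.89, 1.65 and 3.26 log2 units, so replicate 3 was the highest and replicate 1 the lowest of the arrays. The mean was 1.94 ± 1.21 (SD, n = 3), and the probe was called (limma adjusted p = 0.0161). For this test limma drew the variance of the probe toward a common value (SD 0.151), well below the probe's own. The call therefore rests in part on the spread of other probes. The deposited normalized intensity was 766, 1233 and 3646, a ratio of 4.76 between the highest and the lowest array. Replicate 3 lay 1.99 log2 units above the mean of the other two arrays. Of the 8931 called mouse probes, 0.414% had a larger SD than this probe, and of the 2035 called probes within 0.5 log2 units of its level, 0.541% did. The call was lost without replicate 2 (mean 2.09, limma adjusted p = 0.0941) and was kept without replicate 1 (adjusted p = 0.0114) and without replicate 3 (mean 1.41, adjusted p = 7.37e-04).

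The second P2ry2 probe (mMA034044) gave no signal above the controls. It read 19, 23 and 5 scanner units, exceeded 73, 79 and 4 of the 94 control spots, and was marked as not found on replicates 1 and 3. Its mean level was -0.97 ± 0.23 log2 units relative to the threshold. Calls often disagreed between probes of 1 gene on these arrays, within a probe class as well as between classes. Among genes with exactly 2 probes, where a gene had a called mMC probe and also an mMA probe, the mMA probe was called for 173 of 569 genes (30.4%) and not called for 396. For genes with a called mMC probe and an mMR probe, the mMR probe was called for 298 of 588 (50.7%). For genes with 2 mMC probes of which at least 1 was called, both were called for 48 of 198 (24.2%). This share counts genes with either probe called, so it is not on the same footing as the shares for mMA and mMR. The sources used here do not give the meaning of the class letters.

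Some marker lists of other cell types differed between arrays in the same order as the P2ry2 probe, which was lowest on replicate 1 and highest on replicate 3. The corneal and conjunctival epithelium sum had this order and the widest range of the lists. The defining corneal keratin Krt12 had a deposited normalized intensity of 195, 59774 and 130625. On replicate 1 all 7 of these genes lay below the threshold and the P2ry2 probe lay 0.89 log2 units above it. Without replicate 1 the limma adjusted p of P2ry2 was 0.0114, but it then came from replicates 2 and 3 alone, where all 7 genes lay above the threshold. The summed intensity over the probes of 8 fibroblast and stroma markers was 4883, 4112 and 14364, and that of 12 rod markers was 34394, 33431 and 56560, both highest on replicate 3 and lowest on replicate 2. Of these, 3 of 8 fibroblast and 2 of 12 rod genes were detected. The fibroblast marker Fbln1, an extracellular matrix protein gene named here after its values were seen, lay at 0.61, 1.48 and 3.42 log2 units on 1 of its 3 probes. The other detected fibroblast genes had other orders. Dcn lay at 2.12, 1.47 and 4.17, lowest on replicate 2, and Ogn at 1.12, 0.91 and 0.76, highest on replicate 1. The Mueller glia sum was 43120, 38943 and 57171, also highest on replicate 3 and lowest on replicate 2. Its detected gene Dkk3, likewise named after its values were seen, lay at 3.66, 3.80 and 5.79 on 1 of its 2 probes. The SD of Dkk3 was 1.19, and that of the other detected genes of that list was 0.07 to 0.36. The microglia and macrophage sum (892, 1106 and 2005) and the endothelial sum (1317, 1692 and 1995) were lowest on replicate 1 and highest on replicate 3 too. Limma called 0 of 9 genes in each (0 at an unadjusted p under 0.05). The median of all deposited normalized intensities also had this order (73.7, 98.2 and 116). Only the order was shared, as the corneal sum ranged far more widely (657 to 367144) than this median. The sums and the median are on the deposited scale, whereas the P2ry2 levels relative to the threshold were quantile-normalized. The erythrocyte sum had the same order with a ratio of 1.08 between the highest and the lowest array. The part of these cells in the P2ry2 result was not tested. Adora2b did not share the pattern, and its normalized level was highest on replicate 1. In a bulk sample, more cells of a type and more RNA per cell cannot be told apart.

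**Figure D2:**
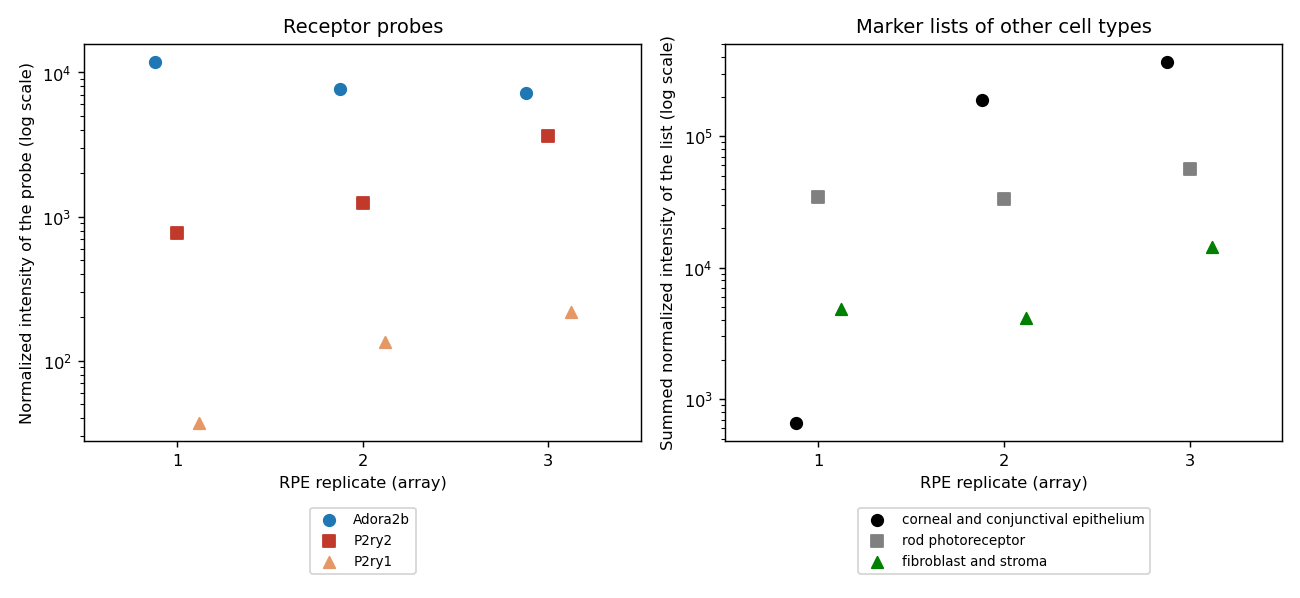
Left, deposited normalized intensity (log scale) of the Adora2b, P2ry2 (mMC008716) and P2ry1 probes on each array. Right, summed normalized intensity (log scale) of the corneal and conjunctival epithelium, rod photoreceptor and fibroblast marker lists on the same arrays, where each point is 1 array, P2ry2 spans 766 to 3646 and the epithelium sum spans 657 to 367144.

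P2ry1 encodes the P2Y1 receptor, which is activated by ADP and couples to Gq. Its single probe (mMC015490) read 17, 37 and 43 scanner units and exceeded 68, 86 and 88 of the 94 control spots. Relative to the threshold it lay at -0.99, -0.50 and -0.22 log2 units, below the threshold on all arrays and lowest on replicate 1. The mean was -0.57 ± 0.39 (n = 3), and the probe was not called. Against a threshold at the controls' 90th percentile its mean was 0.12, still not called (limma adjusted p = 0.518).

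P2rx7 encodes the P2X7 receptor, an ATP-gated cation channel that opens at high ATP and is best known in immune cells. Its probe mMA032176 read 22, 22 and 19 scanner units (-0.84 ± 0.07 log2 units relative to the threshold), above 77, 78 and 73 of the 94 control spots. Its probe mMC021539 read 11, 16 and 11 units (-1.01 ± 0.10), above 33, 66 and 26 control spots. Neither probe was called, and both were marked as not found on replicate 3. Microglia and macrophage markers were detected in 0 of 9 cases in limma (0 at an unadjusted p under 0.05), against 39.8% of all named genes. Csf1r and Cd68 of that list had no matched probe. The bearing of these markers on the P2rx7 result was not tested.

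None of the 6 probes of the 3 adrenergic receptors in the set passed the limma test (0 at an unadjusted p under 0.05). Adra1a encodes the alpha-1A receptor, which couples to Gq. Its probes read 12, 14 and 12 units (mMA032708, -1.01 ± 0.07) and 12, 12 and 6 units (mMC020576, -1.07 ± 0.10). The second of these exceeded 6 of the 94 control spots on replicate 3, which places it at the low end of the controls.

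Adra1b encodes the alpha-1B receptor, also Gq-coupled. Its probe mMR029504 read 82, 35 and 32 units. It exceeded 88, 86 and 87 of the 94 control spots and lay at -0.33, -0.54 and -0.47 log2 units relative to the threshold, with a mean of -0.44 ± 0.11 (n = 3). Against the 90th percentile of the controls this probe lay at 0.24 and missed the call (limma adjusted p = 0.0504). The other Adra1b probe (mMC017196) read 8, 6 and 16 units, above 22, 13 and 53 of the 94 control spots. Its mean was -1.07 ± 0.12, and it was not called.

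Adrb1 encodes the beta-1 receptor, which couples to Gs. Its probe mMR027606 read 50, 29 and 18 units, above 87, 83 and 67 of the 94 control spots, and its mean was -0.71 ± 0.14. Its probe mMC017738 read 15, 10 and 16 units, above 61, 34 and 53 control spots, with a mean of -0.99 ± 0.05. No spot of either probe passed the threshold.

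The 11 uncalled receptor probes gave 33 spots in all, between 5 and 82 scanner units. Of these, 0 passed the threshold of their array, 6 exceeded the 90th percentile of the controls and 12 lay below the controls' median. Their mean levels lay between -1.07 and -0.44 log2 units, with a median of -0.99, and the median of all uncalled mouse probes was -0.92. The scanner software marked 10 of the 39 receptor spots as not found, against 29.2% of all mouse spots. Levels below the threshold could not be told from background here, and such values say nothing about absence of the transcript. The number of arrays limits the precision.

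**Figure D3:**
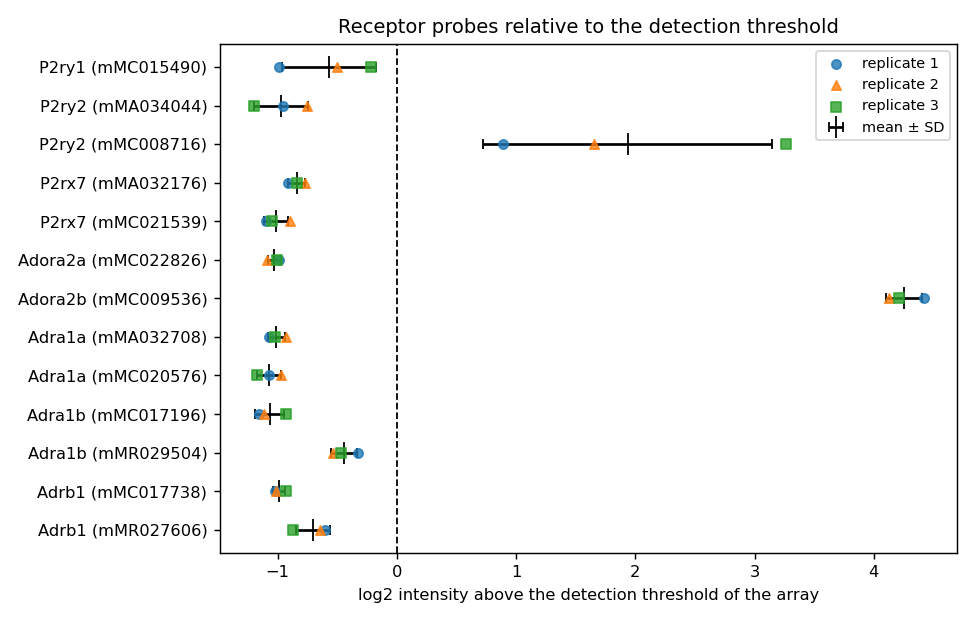
Log2 intensity above the detection threshold of the array (dashed line at 0) for each receptor probe, with 1 marker per replicate and bars for the mean ± SD over 3 arrays. Adora2b (4.25 ± 0.15) and 1 P2ry2 probe (1.94 ± 1.21) lie to the right of the line, and the means of the other 11 probes lie between -1.07 and -0.44.

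The remaining purinergic and adrenergic receptors with a probe were detected in 3 of 19 cases (15.8%), namely P2rx5, P2ry6 and Adra2c. Adra2c, the alpha-2C adrenergic receptor, which couples to Gi, read 8361, 6647 and 4226 scanner units on its single probe. It lay at 5.50 ± 0.38 log2 units (limma adjusted p = 3.13e-06), and all 3 arrays were far above the threshold. It was the only adrenergic receptor gene called among 9 with a probe.

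P2ry6, the receptor for UDP, was at 0.60 ± 0.02 log2 units (limma adjusted p = 8.16e-04) with 265, 133 and 95 units on 1 of its 2 probes. P2rx5, an ATP-gated channel subunit, was at 0.42 ± 0.11 (adjusted p = 0.00683) with 197, 110 and 89 units, also on 1 of 2 probes. Both lay close to the threshold on every array and did not share the high replicate 3 value of P2ry2. By family, 2 of 8 P2Y receptor genes (25%) and 1 of 7 P2X receptor genes (14.3%) were detected, members of the set included. Among P2Y genes, P2ry4 (-1.13 ± 0.20), P2ry10 (-1.10 ± 0.11) and P2ry12 (-1.09 ± 0.10) were not called. P2ry10 is counted here as a P2Y gene by its name and is not an established nucleotide receptor. Among P2X genes, P2rx3 (-0.76 ± 0.11) and P2rx6 (-0.87 ± 0.03) were not called. Among adrenergic genes, Adra1d (-0.98 ± 0.14) and Adra2a (-0.81 ± 0.02) were not called. The dopamine receptors, which bind the precursor of noradrenaline, were detected in 0 of 5 cases in limma (0 at an unadjusted p under 0.05), with Drd2, Drd3 and Drd5 at -0.83, -0.36 and -1.01.

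Genes that act downstream of these receptors or supply their ligands were detected in 27 of 68 cases (39.7%), close to the share of all named genes (39.8%). G protein alpha subunits were detected in 7 of 12 cases (58.3%), and 8 had a probe at an unadjusted p under 0.05 in limma. The Gi/o members Gnao1 and Gnai2 were at 6.83 ± 0.25 and 3.54 ± 0.03 log2 units. The Gq members Gnaq and Gna11 were at 3.00 ± 0.19 and 2.80 ± 0.28. Gna12, Gnaz and Gna14 were not called (-1.09, -0.97 and -0.64). Gnas, the Gs subunit through which Adora2b and Adrb1 act, was looked up after its values were seen. It was not called on any of its 4 probes, and the probe with the largest limma statistic lay at -0.12, 0.61 and 0.85 log2 units on the 3 arrays (limma adjusted p = 0.133). Gnal, of the same Gs family and also looked up afterwards, was called on 1 of its 5 probes (0.35 ± 0.22, limma adjusted p = 0.0432).

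In the Gq branch, 3 of 6 phospholipase C beta and inositol trisphosphate receptor genes were detected (50%). The calcium release channel Itpr1 was at 6.33 ± 0.21 log2 units, and the phospholipases Plcb2 and Plcb3 were at 0.99 ± 0.46 and 0.85 ± 0.65. Plcb1, Plcb4 and Itpr2 were not called. In the cyclic AMP branch, 6 of 13 adenylyl cyclase and protein kinase A genes were detected (46.2%). The protein kinase A subunits Prkar1a and Prkacb were at 6.20 ± 0.09 and 5.50 ± 0.27, Prkar2a was at 0.56 ± 0.02 and the cyclase Adcy6 at 2.03 ± 0.37. Adcy7, Adcy8 and Prkar1b were not called (-0.97, -0.95 and -0.77). Of the receptor kinases and arrestins, which switch such receptors off, 1 of 7 was detected, Grk4 at 1.87 ± 0.02, while Grk3, Grk5 and Grk6 were not called (-1.06, -0.74 and -0.54).

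Genes for the supply and removal of the ligands were covered by 3 lists, and the ligands themselves were not measured. Nucleotide hydrolysis and adenosine handling genes were detected in 5 of 13 cases (38.5%). Nt5e, the ectoenzyme that makes adenosine from AMP, read 1130, 412 and 437 scanner units and lay at 2.24 ± 0.33 log2 units (limma adjusted p = 6.31e-05). The phosphatase Alpl was at 0.70 ± 0.32 and Entpd2, which hydrolyses ATP, at 0.47 ± 0.16. Enpp2 was at 6.26 ± 0.46, and the enzyme it encodes, autotaxin, is best known for making lysophosphatidic acid rather than for nucleotide breakdown. Entpd1, Enpp1 and the nucleoside transporter Slc28a2 were not called (-1.02, -1.02 and -1.11). Of the ATP release genes, 2 of 6 were detected (33.3%), the connexin Gja1 at 6.96 ± 0.20 and the transporter Abcc1 at 2.25 ± 0.42. Not called were the channel Panx1 (-0.30 ± 0.06), the vesicular nucleotide transporter Slc17a9 (-0.70 ± 0.04) and Cftr (-1.0 ± 0.05).

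Catecholamine synthesis, uptake and breakdown genes were detected in 3 of 11 cases (27.3%). Ddc, the decarboxylase that makes dopamine, was at 3.87 ± 0.36 log2 units, and the breakdown enzyme Maob was at 1.12 ± 0.42. Pnmt, which makes adrenaline, and the transporters Slc6a3 and Slc18a1 were not called (-1.04, -1.05 and -1.06).

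**Figure D4:**
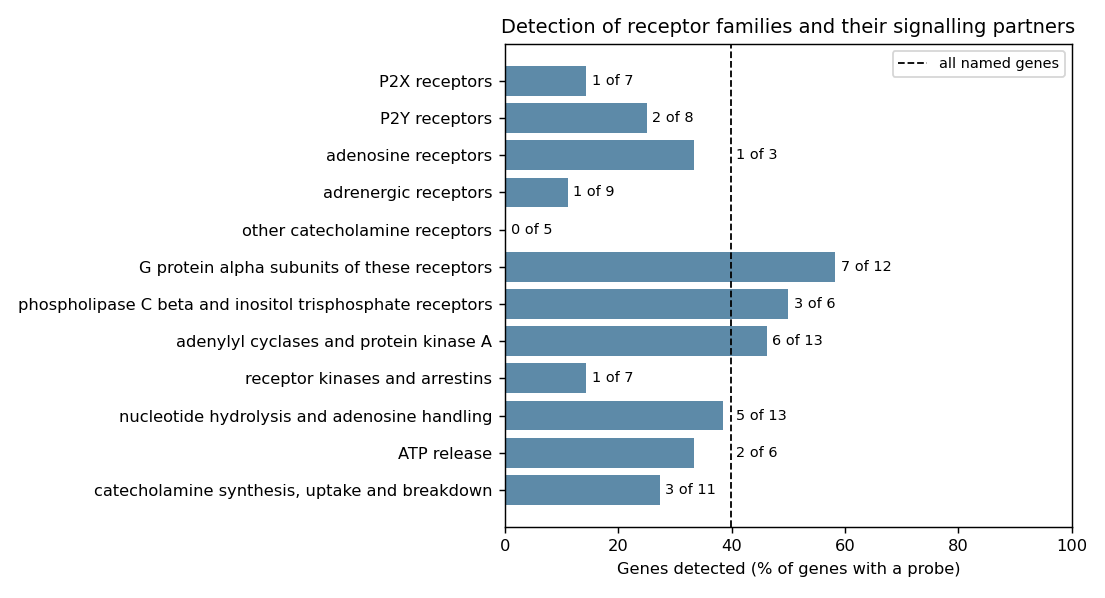
Share of genes with a probe that were detected (% of genes, with counts beside the bars) in each receptor family and each list of signalling partners. The dashed line is the share of all named genes (39.8%), and the lists run from 0 of 5 for the dopamine receptors, drawn as other catecholamine receptors, to 7 of 12 for the G protein alpha subunits.

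Marker genes of other cell types that could lie in the sheets were detected in 15 of 82 cases (18.3%). Of the lists not yet described, 1 of 8 pericyte and smooth muscle genes was detected (Pdgfrb, 1.45 ± 0.22 log2 units). The same count was found in 1 of 7 Schwann cell and sympathetic nerve genes (Mbp, 0.78 ± 0.64), 1 of 8 cone genes (Gnat2, 2.19 ± 0.34) and 1 of 3 melanocyte genes (Kit, 0.50 ± 0.25). Mueller glia genes gave 4 of 7, among them Glul (4.43 ± 0.16) and Vim (4.23 ± 0.07), and erythrocyte genes 2 of 4, Hba-a1 (7.04 ± 0.13) and Alas2 (1.28 ± 0.32). The fibroblast genes included Dcn (2.58 ± 1.41) and Ogn (0.93 ± 0.18), and the rod genes Rom1 (5.95 ± 0.18) and Gnat1 (3.46 ± 1.29). The part of these cells in the receptor signals was not tested.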

How the data were processed

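Biotin-labelled complementary RNA was made from the RNA of 3 samples of RPE sheets, and each sample was hybridised to 1 MEEBO slide, which was stained with labelled streptavidin and scanned. The authors deposited 1 scanner export per array (GenePix Pro 4.1.1.4, read from the export itself) with linear foreground and local background intensity, not normalized, and a flag that the scanner software set, a score per the file headers. The deposited value table held the authors' normalized intensity, equal to foreground minus background, with values under 1 set to 1, times 2.17, 3.64 and 5.05 on replicates 1, 2 and 3. The sources used here name neither that normalization nor what the mCN spots hold, and every call rests on these spots. The number of unused per-sample columns was 0.

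Normexp background correction (offset 50, all spots) was run in limma 3.58.1 under R 4.3.3, and the values were taken to log2 and quantile-normalized over mouse probes and mCN spots. The threshold was the 95th percentile of the mCN spots (log2 7.15, 7.05 and 7.08). Log2 intensity minus threshold was tested with lmFit and eBayes (intercept only, one-sided), and the fit was checked on simulated data. There every background probe was set below the threshold, with SDs assigned without regard to level. The check therefore does not show how the test behaves for probes at the threshold. For genes with several probes outside the set, the probe of largest limma statistic is given. Differences in level between probes were not tested, and the medians and ranges of levels given are descriptions only. The p-values measure no spread beyond these 3 samples. In limma the variance of each probe was also drawn toward a common value taken from all mouse probes. Probes were named by accession through a gene table of GRCm38.p6 (23071 probes with 1 gene, 12007 with none). The members and the 24 gene lists, chosen from textbook knowledge, were chosen with earlier results of these data known. Named were all members, up to 4 detected genes with the largest limma statistic and up to 3 undetected genes with the smallest in each pathway list, and up to 2 detected genes in each marker list, and 1 gene that this rule names is not reported here. With 3 arrays no correlation was computed. The alternatives were other thresholds, background corrections, normalizations, probe filters and gene rules, the filter of the methods (deposited intensity above 500) and leaving out each array.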

Additional observations from a re-analysis of the deposited data

How the results depend on the processing

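Adora2b was called under all 11 alternatives with a level, at 3.43 to 5.0 log2 units above the threshold (largest limma adjusted p = 3.21e-04). P2ry2 (mMC008716) was called under 10 of 11, at 1.11 to 2.62, and its adjusted p ranged from 6.00e-13 to 0.0941. The smallest p-values came with the 99th percentile and with no normalization between arrays, where limma gave every probe the same variance, so the spread of P2ry2 itself did not enter. The number of receptor probes called, and of receptor genes detected, was 1 to 2 when each replicate was left out, and the 1 came without replicate 2. Where calls on more than 50% of the probes per gene were required, 1 receptor gene was detected, since the second P2ry2 probe missed the call. Against the 90th percentile of the controls, the sign of P2ry1 (0.12) and of 1 Adra1b probe (0.24) turned, and neither was called. Over the alternatives, 129 levels of receptor probes kept their sign and their call, 2 turned sign and 1 lost its call. Detected pathway genes numbered 32, against 47 with the 90th percentile, 19 with the 99th percentile and 21 with more than 50% of probes required, and 26 to 32 when a replicate was left out. Detected marker genes of other cell types numbered 15, against 36 with the 90th percentile, 23 with no normalization between arrays, 23 when only probes above the threshold on at least 2 arrays were adjusted, 24 with a deposited intensity above 500, and 13 to 20 when a replicate was left out. Over all mouse probes, 8931 were called, and 13548 with the 90th percentile. Naming probes by the name column was not run, because that column holds accessions. No paired analysis was possible because there was only 1 group, and slide could not be a block because each slide held 1 array. The signal of 11 of 13 receptor probes lay below the detection threshold on every array, which limits what the arrays can show of them.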
